A study of Mus musculus with 40 samples.

Results

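Cells that break down glucose use isoforms of the same enzyme or carrier that come from different genes. Described here are 10 such genes, in 5 pairs of a muscle-type or heart-type isoform and a widely expressed one, in injured and uninjured heart tissue of the mouse. The pairs are Eno3 and Eno1, Pgam2 and Pgam1, Slc2a4 and Slc2a1, Pfkm and Pfkp, and Ldhb and Ldha. The genes were chosen by symbol, with earlier results of these data known. All 10 are among the 11450 genes of the authors' table and among the 11390 that were tested.

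Glycolysis turns glucose into pyruvate in a chain of enzyme steps in the cytosol, and pyruvate is either burnt in mitochondria or reduced to lactate. The adult heart draws most of its energy from fatty acids, takes up glucose largely through an insulin-responsive carrier, and also oxidises lactate. Immune cells and dividing cells commonly carry widely expressed isoforms, several of which are known targets of hypoxia-inducible factors. Slc2a4 and Slc2a1 encode the insulin-responsive and the basal glucose carrier, Pfkm and Pfkp the muscle and platelet types of phosphofructokinase, which commits sugar to glycolysis. Pgam2 and Pgam1 encode phosphoglycerate mutases, and Eno3 and Eno1 the beta and alpha enolase of the step after it. Ldhb encodes the heart-type subunit of lactate dehydrogenase. Ldha encodes its other main subunit, which is widely expressed and, despite its place among the ubiquitous isoforms here, is also the main form in fast skeletal muscle.

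The hearts came from adult C57BL/6 mice, an inbred laboratory strain, whose left anterior descending coronary artery had been ligated permanently. Both the fibrotic scar (injured) and tissue remote from it (uninjured) were sequenced in each of 20 hearts, taken from 4 mice at each of 5 times, on days 3, 7, 14, 21 and 42, which gave 40 libraries. All mice were injured, so the uninjured region is remote tissue of an infarcted heart and not a heart without injury. The mice of day 42 carry labels beginning with B and those of all earlier days labels beginning with A, so that day 42 and the B series cannot be told apart. The same label on 2 days stands for different mice.

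Levels are in RPKM as deposited by the authors, which scale reads to gene length and a library size. Whole reads worked back from these values summed to between 11559155 and 23827022 in injured and between 15924675 and 26114582 in uninjured libraries. On the deposited scale these totals, relative to the injured library of day 3 mouse A4, had medians of 0.988 in injured and 1.397 in uninjured libraries. The deposited scale thus does not follow the totals of the table's genes alone. Whether a further scaling factor was used is not given. The 8 cardiomyocyte markers examined, among them Myh6 and Tnni3, summed to between 537 and 3788 RPKM in injured and between 11496 and 19209 RPKM in uninjured libraries, without overlap. The 8 monocyte and macrophage markers summed to between 399.6 and 1832 RPKM in injured and between 160.6 and 282.8 RPKM in uninjured libraries. The 6 fibroblast markers summed to between 984 and 3995 RPKM in injured and between 444 and 801 RPKM in uninjured libraries. The 6 endothelial markers summed to between 84.6 and 219.8 RPKM in injured and between 161 and 220.5 RPKM in uninjured libraries. The 5 of 6 red blood cell markers in the table summed to between 13.3 and 135 RPKM in injured and between 102 and 366 RPKM in uninjured libraries. Of 6 neutrophil markers, 3 were in the table, with sums between 1.75 and 71.3 RPKM in injured and between 0.718 and 11.1 RPKM in uninjured libraries, and S100a8 was at 0 in an injured library. Of 8 skeletal muscle markers, the table holds Mybpc2 and Tnnt3, which summed to between 3.9 and 11.9 RPKM in injured and between 9.27 and 20.3 RPKM in uninjured libraries. They went opposite ways. Mybpc2 lay between 1.69 and 8.48 RPKM in injured and between 8.74 and 19.8 RPKM in uninjured libraries. Tnnt3 lay between 1.34 and 6.42 RPKM in injured and between 0.223 and 0.793 RPKM in uninjured libraries.

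In the GENCODE M21 annotation of the mm10 build, the muscle-type genes Eno3 (chromosome 11, 70657202 to 70662513), Pgam2 (chromosome 11, 5801640 to 5803733), Slc2a4 (chromosome 11, 69942539 to 69948188) and Pfkm (chromosome 15, 98092589 to 98132451) share no stretch of 50 bases of their longest coding transcript with a transcript of another gene. Ldhb (chromosome 6, 142490249 to 142507957) shares 27.0% of its 50-base words with the transcripts of 1 other gene, and Ldha (chromosome 7, 46841475 to 46855627) 16.6% with those of 14 others. Eno1 (chromosome 4, 150236721 to 150248879) shares 72.2% of its words with transcripts of 9 other genes, and Pgam1 (chromosome 19, 41911923 to 41918660) 41.5% with those of 4 others. None of these other genes is a row of the table, and the treatment of reads that map to several places is not given in the sources used here, so the levels of Eno1 and Pgam1 in particular are uncertain. Slc2a1 lies at chromosome 4, 119108711 to 119137983. Pfkp (chromosome 13, 6579768 to 6648777) overlaps Pitrm1 on the opposite strand over 17.1% of its words, and it is not given whether the counting used strand.

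The promoters of 9 of the 10 genes were read from RefSeq (GRCm38.p6), each from 250 bases before to 50 bases after the first listed transcription start. ACGTG, the core of the element bound by hypoxia-inducible factors, was searched on both strands, so that the palindrome CACGTG counts as 2 matches and also overlaps the E-box CANNTG. It occurs at the first start of 3 of 5 ubiquitous isoforms, 5 times in Ldha and once each in Slc2a1 and Pgam1, and of 1 of 4 muscle-type isoforms, 3 times in Pfkm. Of 27025 mouse promoters of the same length, 19.7% hold it. A loose pattern after the box of the MEF2 muscle transcription factors, CTA and TAG with 4 bases of any kind between them, was also searched. It occurs 2 times in Ldhb and in no other of the 9, against 3.7% of all promoters. Both matches in Ldhb hold a G or C among the 4 middle bases, so neither is taken as a MEF2 site. CANNTG, which 72.1% of all promoters hold, occurs 5 times in Pgam2, 3 times in Pfkm and 2 times each in Eno3, Eno1 and Ldha, and not in the other 4. The promoters below carry in capitals ACGTG or its reverse complement (Slc2a1, Pgam1 and Ldha) or the loose pattern (Ldhb, the partner of Ldha). They lie at chr4:119108495-119108794 (plus strand) for Slc2a1, chr19:41911621-41911920 (plus strand) for Pgam1, chr7:46845554-46845853 (plus strand) for Ldha and chr6:142507908-142508207 (minus strand) for Ldhb. A match is a match of letters only, and its part in any level was not tested. On day 3 Slc2a1 and Pgam1 were higher in the scar, as were Eno1 and Pfkp, which hold no ACGTG at the first start. Pfkm, with 3 matches, and Ldha, with 5, were lower there as deposited. Further listed starts of Eno1, Ldha and Pfkm are left out of the counts above. ACGTG occurs 1, 0 and 0 times at those of Pfkm, and at none of those of Eno1 and Ldha.
Slc2a1 promoter: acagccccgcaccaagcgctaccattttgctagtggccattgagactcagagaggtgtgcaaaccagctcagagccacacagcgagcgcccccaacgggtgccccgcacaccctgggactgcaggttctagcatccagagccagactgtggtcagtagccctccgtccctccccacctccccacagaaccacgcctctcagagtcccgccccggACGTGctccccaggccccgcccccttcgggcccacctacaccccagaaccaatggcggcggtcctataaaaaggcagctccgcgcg
Pgam1 promoter: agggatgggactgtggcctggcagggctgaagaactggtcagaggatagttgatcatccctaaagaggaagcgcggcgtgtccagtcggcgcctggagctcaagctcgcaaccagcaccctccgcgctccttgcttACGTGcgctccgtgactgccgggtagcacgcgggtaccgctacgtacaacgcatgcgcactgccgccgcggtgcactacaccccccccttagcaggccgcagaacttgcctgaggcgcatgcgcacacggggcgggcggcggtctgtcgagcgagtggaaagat
Ldha promoter: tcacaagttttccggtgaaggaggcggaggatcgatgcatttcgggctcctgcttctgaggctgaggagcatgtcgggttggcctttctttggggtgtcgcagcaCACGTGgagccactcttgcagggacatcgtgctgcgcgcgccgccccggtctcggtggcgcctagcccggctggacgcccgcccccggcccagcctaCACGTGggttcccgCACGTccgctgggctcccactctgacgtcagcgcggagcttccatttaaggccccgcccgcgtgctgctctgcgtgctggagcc
Ldhb promoter: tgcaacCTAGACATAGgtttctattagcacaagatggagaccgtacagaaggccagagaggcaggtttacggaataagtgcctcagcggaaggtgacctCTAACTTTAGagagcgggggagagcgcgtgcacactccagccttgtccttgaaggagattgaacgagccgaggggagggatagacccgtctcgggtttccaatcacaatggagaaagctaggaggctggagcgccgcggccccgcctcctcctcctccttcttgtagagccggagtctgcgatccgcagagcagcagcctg

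All 5 muscle-type or heart-type isoforms were lower in the scar than in remote tissue on all 5 days, in 20 of 20 mice and without overlap between the regions on any day. The share of all genes without overlap, or lower in 20 of 20 mice, is not given here. The genes with a limma adjusted p under 0.05 that were lower in the injured region made up 39.6% of all genes tested on day 3, 38.7% on day 7, 40.5% on day 14, 41% on day 21 and 38.7% on day 42, and 28.8% were lower on all 5 days. The median log2 difference of the 5 was -4.07 on day 3, -4.05 on day 7, -2.89 on day 14, -2.98 on day 21 and -2.74 on day 42, whereas that of all genes tested lay between 0.03 and 0.06. In bulk tissue, fewer cells of a type and less RNA per cell cannot be told apart. The cardiomyocyte markers had median log2 differences of -3.83, -3.64, -2.47, -2.55 and -2.17 on the 5 days in turn.

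**Figure D1:**
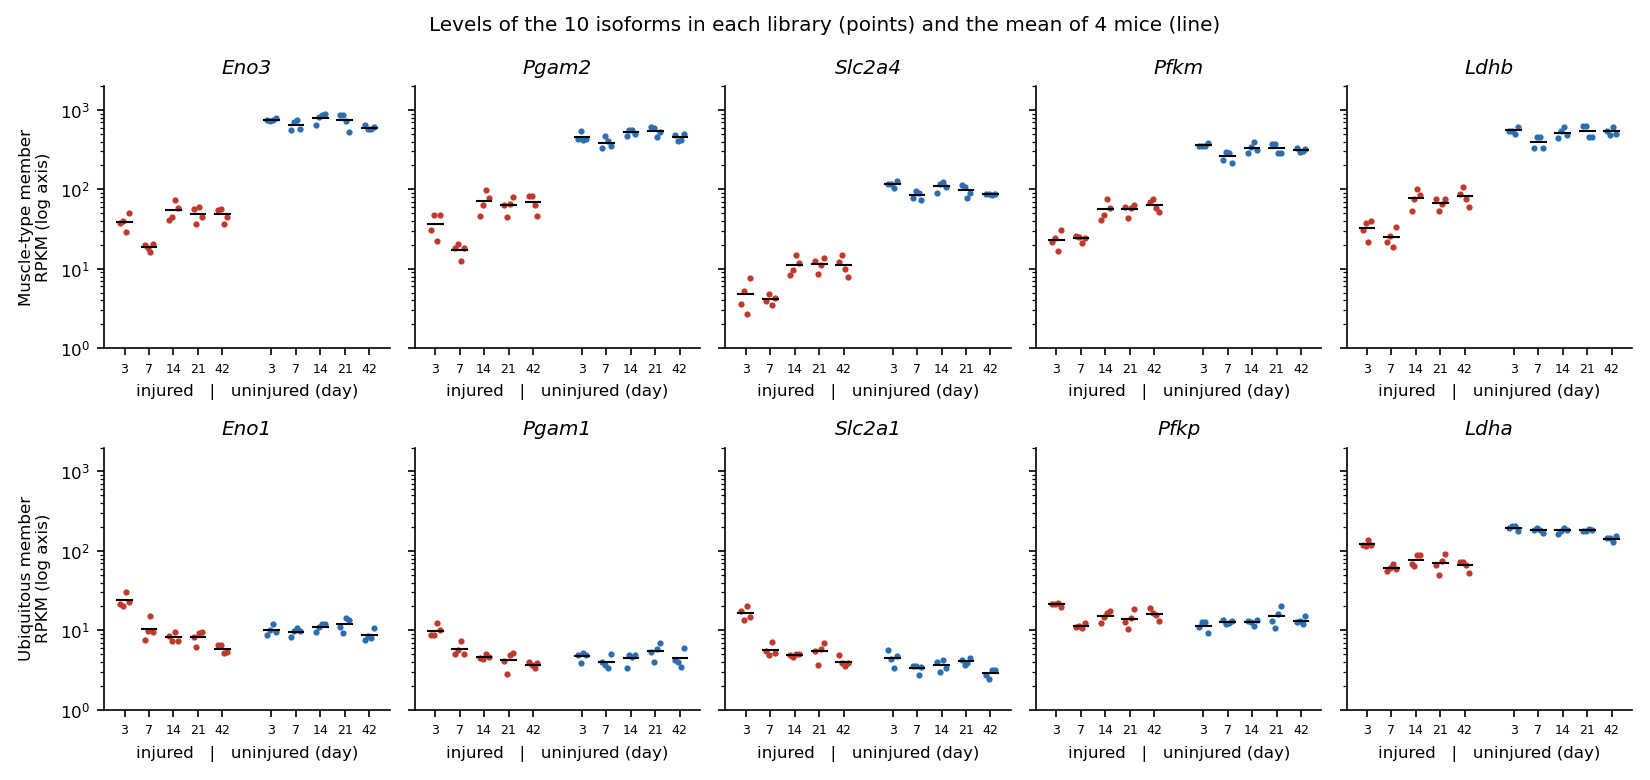
RPKM on a log axis for the 5 muscle-type or heart-type isoforms (top row, Ldhb being the heart type) and the 5 ubiquitous isoforms (bottom row), with injured libraries on the left of each panel, uninjured libraries on the right and days 3 to 42 within each. Each point is a library and each line the mean of 4 mice. The top row shows 2 separate levels in every panel, for Eno3 at most 73.0 RPKM in injured and at least 526 RPKM in uninjured libraries, while in the bottom row the day 3 scars lie above uninjured tissue for Slc2a1, Eno1, Pgam1 and Pfkp, and all scars lie below it for Ldha.

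Eno3, the muscle beta enolase, had 37.9, 39.8, 29.2 and 50.1 RPKM in injured tissue on day 3, against 750.0, 723, 757 and 786 RPKM in uninjured tissue. On day 7 it had 19.9, 18.1, 16.3 and 20.5 RPKM in injured tissue, against 563, 699, 739 and 581 RPKM in uninjured tissue. The 4 injured libraries of day 7 were the lowest of all 20 injured libraries. In between, on days 14 and 21, it averaged 54.7 ± 14.3 and 49.5 ± 10.8 RPKM in injured tissue, against 802 ± 106 and 738 ± 156 RPKM in uninjured tissue (SD, n = 4 each). Eno3 was 19.2-fold lower on day 3 and 34.6-fold lower on day 7 in the injured region, with log2 differences of -4.25 ± 0.15 and -5.03 ± 0.15 (SE, limma adjusted p = 7.42e-16 and 1.64e-16). On day 42 it averaged 48.8 ± 9.31 RPKM in injured and 599 ± 31.2 RPKM in uninjured tissue (SD, n = 4 each), and the log2 difference was -3.61 ± 0.15 (limma adjusted p = 2.53e-14).

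Slc2a4, the insulin-responsive glucose carrier, had 3.59, 5.22, 2.68 and 7.66 RPKM in injured tissue on day 3, against 117, 116, 105 and 127 RPKM in uninjured tissue. On day 42 it had 12.1, 14.8, 10.1 and 7.99 RPKM in injured tissue, against 87.6, 86.4, 85.5 and 87.4 RPKM in uninjured tissue. On days 7, 14 and 21 it averaged 4.16 ± 0.56, 11.2 ± 2.89 and 11.5 ± 2.21 RPKM in injured tissue, against 84.8 ± 10.1, 109 ± 15.4 and 97.2 ± 16.3 RPKM in uninjured tissue (SD, n = 4 each). Its injured values of days 3 and 42 stayed far below every uninjured value, and those of day 42 lay above those of day 3 in all 4 libraries. The log2 difference was -4.41 ± 0.15 on day 3 and -2.87 ± 0.15 on day 42 (SE, limma adjusted p = 4.1e-16 and 3.89e-13).

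Pfkm, the muscle phosphofructokinase, averaged 23.3 ± 5.67 RPKM in injured and 361 ± 16.7 RPKM in uninjured tissue on day 3, and 63.8 ± 10.6 RPKM in injured and 314 ± 13.8 RPKM in uninjured tissue on day 42 (SD, n = 4 each). It showed the smallest log2 difference of the 5 on days 7, 14, 21 and 42, ending at -2.29 ± 0.14 (limma adjusted p = 5.4e-12). Pgam2, the muscle phosphoglycerate mutase, lay between 12.7 and 98.6 RPKM over the 20 injured libraries, with a median of 47.8, and between 328 and 603 RPKM over the 20 uninjured libraries, with a median of 466. Its log2 difference ran between -4.40 on day 7 and -2.74 on day 42 (SE 0.19 each). Ldhb, the heart-type lactate dehydrogenase subunit, had 30.5, 38.0, 21.9 and 39.5 RPKM in injured tissue on day 3, against 541, 548, 499 and 617 RPKM in uninjured tissue. By day 42 it had 88.7, 108, 74.98 and 60.4 RPKM in injured tissue, against 550.1, 481, 617 and 502 RPKM in uninjured tissue. All 4 late scars held more Ldhb than any of the 4 early ones, and the log2 difference was -4.07 ± 0.17 on day 3 and -2.71 ± 0.17 on day 42 (limma adjusted p = 7.17e-15 and 9.16e-12).

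Among the 5 ubiquitous isoforms, Ldha alone followed that pattern as deposited, lower in the scar on all 5 days and in 20 of 20 mice. Of all genes, 28.8% were lower on all 5 days, and the day 3 call of Ldha depended on the scale, as given below. On day 3, 4 of 5 were higher in the injured region (Slc2a1, Eno1, Pgam1 and Pfkp) and Ldha was lower, when 44.1% of all genes were higher. On day 7, Slc2a1 and Pgam1 were higher (43.6% of all genes higher), Ldha was lower, and Eno1 and Pfkp did not pass the test. From day 14 on Slc2a1 remained higher on each day, and Pfkp was higher on days 14 and 42, when 42.4% and 40.5% of all genes were higher. On day 21 Slc2a1 alone was higher (43.1% of all genes higher). Eno1 and Ldha were lower on days 14, 21 and 42, as was Pgam1 on day 21. On these 3 days 40.5%, 41% and 38.7% of all genes were lower. After day 3, no more than 2 of 5 were higher on any day, which is no larger a share than that of all genes. With equal totals of recovered reads 3 of 5 were higher on each of days 7 and 14 (Slc2a1 and Pgam1 on both, with Eno1 on day 7 and Pfkp on day 14), on a scale that also moved the median of all genes upwards. The summed neutrophil markers averaged 47.0 ± 23.6 RPKM in injured and 6.15 ± 3.92 RPKM in uninjured tissue on day 3, and the monocyte and macrophage markers 971 ± 190 RPKM in injured and 235 ± 21.6 RPKM in uninjured tissue (SD, n = 4 each). On day 7 the neutrophil markers averaged 9.16 ± 3.48 RPKM and the monocyte and macrophage markers 1374 ± 316 RPKM in injured tissue. The part of either in the levels of these isoforms was not tested.

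**Figure D2:**
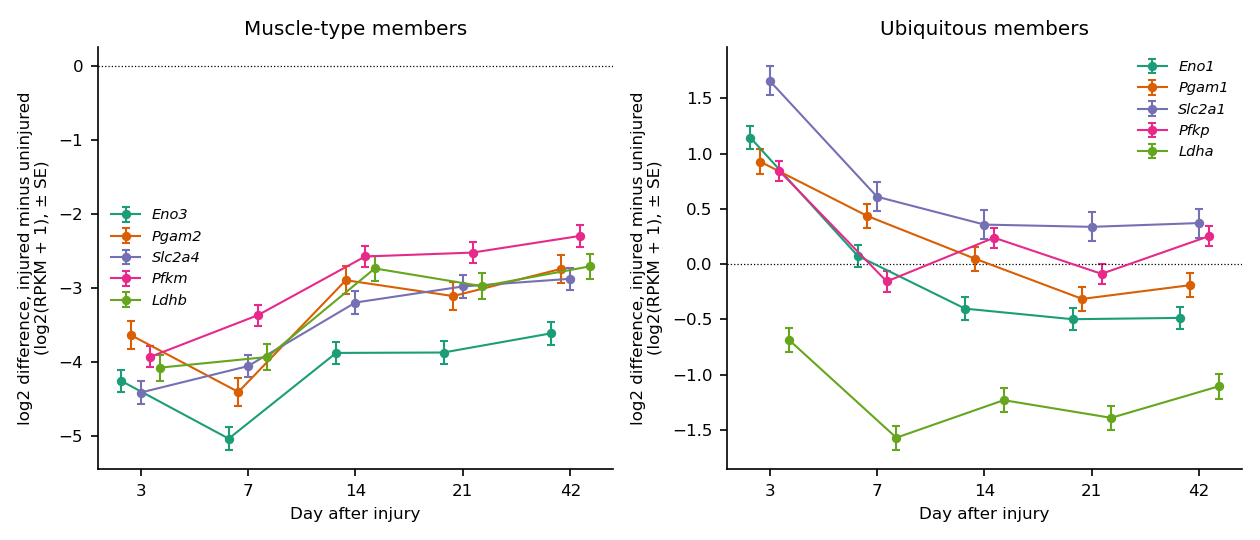
Log2 difference between injured and uninjured tissue on log2(RPKM + 1) by day for the muscle-type or heart-type isoforms (left) and the ubiquitous isoforms (right), as limma estimates with SE. Each estimate compares the regions of 4 mice. The SE comes from 1 model of all 40 libraries and is not the scatter of that day alone. The left lines stay below -2.2 throughout, and 4 of the right lines start above 0.8 on day 3 and lie between -0.5 and 0.4 from day 14 on, whereas Ldha stays below 0.

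Slc2a1, the basal glucose carrier, had 17.5, 13.7, 20.2 and 14.5 RPKM in injured tissue on day 3, against 5.66, 4.42, 3.36 and 4.71 RPKM in uninjured tissue. On day 7 it had 5.45, 4.95, 7.06 and 5.22 RPKM in injured tissue, against 3.6, 3.54, 2.78 and 3.5 RPKM in uninjured tissue. On days 14, 21 and 42 it averaged 4.93 ± 0.226, 5.51 ± 1.39 and 4.05 ± 0.616 RPKM in injured tissue, against 3.65 ± 0.56, 4.07 ± 0.357 and 2.89 ± 0.361 RPKM in uninjured tissue (SD, n = 4 each). The 4 scars of day 3 exceeded every other library of the series in Slc2a1. The log2 difference was 1.66 ± 0.13 on day 3, the largest among the ubiquitous isoforms, and 0.61 ± 0.13 on day 7 (SE, limma adjusted p = 1.46e-10 and 0.000231). On days 14, 21 and 42 it was 0.36, 0.34 and 0.37 (SE 0.13 each, limma adjusted p = 0.0164, 0.0223 and 0.0138), higher in 4 of 4 mice on each day. These 3 late calls were lost when 1 of several mice was left out, A5 or A11 on day 14, A10 or A11 on day 21, and B1 or B3 on day 42, with log2 differences of 0.26 to 0.33. They were also lost after quantile normalization, at 0.27, 0.27 and 0.25 (limma adjusted p = 0.0665, 0.0738 and 0.0975). With equal totals of recovered reads they were 0.76, 0.78 and 0.78 (limma adjusted p at most 6.26e-06).

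Eno1, the alpha enolase, had 21.7, 20.2, 30.4 and 22.7 RPKM in injured tissue on day 3, against 8.73, 10.2, 11.9 and 9.63 RPKM in uninjured tissue. On day 42 it had 6.53, 6.47, 5.14 and 5.36 RPKM in injured tissue, against 7.54, 8.42, 7.92 and 10.8 RPKM in uninjured tissue. The regions did not overlap on either day and stood in opposite orders. On days 7, 14 and 21, when they overlapped, Eno1 averaged 10.5 ± 3.16, 8.16 ± 1.11 and 8.25 ± 1.55 RPKM in injured tissue, against 9.64 ± 1.03, 11.1 ± 1.11 and 12.1 ± 2.33 RPKM in uninjured tissue (SD, n = 4 each). The log2 difference was 1.14 ± 0.10 on day 3, 0.08 ± 0.10 on day 7 and -0.49 ± 0.10 on day 42 (SE, limma adjusted p = 9.55e-10, 0.494 and 0.000184). These values depended on the scale from day 7 on: with every library set to the same total of recovered reads, the log2 differences of Eno1 on days 7, 14, 21 and 42 were 0.40, 0.05, -0.0046 and -0.018 (limma adjusted p = 0.00166, 0.642, 0.969 and 0.881). That scaling moved the median of all genes to between 0.35 and 0.51 and the share of calls that were higher in the injured region to 73.3%, 68.1%, 71.9%, 72.3% and 75.2% on the 5 days in turn, against 52.7%, 53.0%, 51.2%, 51.3% and 51.1% as deposited. Set against that median, Eno1 was still below the middle of all genes on days 14, 21 and 42.

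Pgam1, the widely expressed phosphoglycerate mutase, averaged 9.96 ± 1.61 RPKM in injured and 4.74 ± 0.573 RPKM in uninjured tissue on day 3 (SD, n = 4 each), a log2 difference of 0.93 ± 0.11 (limma adjusted p = 8.17e-08). On day 21 it averaged 4.26 ± 1.03 RPKM in injured and 5.52 ± 1.21 RPKM in uninjured tissue, with overlapping libraries and a log2 difference of -0.31 ± 0.11 (limma adjusted p = 0.0115), which was 0.13 with equal totals of recovered reads (limma adjusted p = 0.286). Pfkp, the platelet phosphofructokinase, had 21.8, 21.6, 21.9 and 19.8 RPKM in injured tissue on day 3, against 10.9, 12.8, 12.9 and 9.36 RPKM in uninjured tissue. That was its only day without overlap between the regions, and the log2 difference was 0.84 ± 0.09 (limma adjusted p = 2.67e-08). On days 7 and 21 the log2 differences were -0.16 and -0.09 and did not pass the test (limma adjusted p = 0.122 and 0.381). With equal totals of recovered reads that of day 21 was 0.42 (limma adjusted p = 0.000531). On days 14 and 42 they were 0.24 and 0.25 (SE 0.09 each, limma adjusted p = 0.0214 and 0.0165), higher in 3 of 4 mice on each day. Both calls were lost without the mouse in the model (limma adjusted p = 0.103 and 0.0886), and when A6 or A11 was left out on day 14 or B1, B3 or B9 on day 42, with log2 differences of 0.15 to 0.24. With equal totals of recovered reads they were 0.71 and 0.75 (limma adjusted p = 9.22e-07 and 4.18e-07). Pitrm1, which overlaps Pfkp on the other strand, was lower in the injured region on all 5 days, with log2 differences between -0.71 and -0.48.

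Ldha had 118, 114, 136 and 118 RPKM in injured tissue on day 3, against 194, 206, 204 and 177 RPKM in uninjured tissue. On day 7 it had 55.2, 61.1, 68.2 and 58.4 RPKM in injured tissue, against 181, 193, 185 and 169 RPKM in uninjured tissue. On days 14, 21 and 42 it averaged 77.5 ± 12.8, 70.4 ± 16.7 and 66.2 ± 9.43 RPKM in injured tissue, against 181 ± 12.9, 182 ± 6.66 and 143 ± 10.3 RPKM in uninjured tissue (SD, n = 4 each). The regions did not overlap on any day, and Ldha was at 2.99 times the injured level in uninjured tissue on day 7. The log2 difference was -0.68 ± 0.11 on day 3, -1.57 ± 0.11 on day 7 and -1.10 ± 0.11 on day 42 (SE, limma adjusted p = 7.14e-06, 2.1e-11 and 8.67e-09). The day 3 value depended on the scale: it was -0.11 with equal totals of recovered reads (limma adjusted p = 0.302) and turned to 0.36 after quantile normalization (limma adjusted p = 0.00309), while it stayed lower and past the threshold in all other alternatives run.

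Over time, all 10 genes changed in the injured region by an F test over the 5 days (limma adjusted p at most 0.000141), where 87.6% of all genes did. The region difference also varied with day for all 10, where it did for 74.3% of all genes. Between days 3 and 7 the scars lost 7 of the 10 transcripts, all 5 ubiquitous ones together with Eno3 and Pgam2, against 32.7% of all genes that were lower. The fall of Slc2a1 was the largest, 1.38 ± 0.14 on the log2 scale (limma adjusted p = 1.36e-07), followed by Eno1, whose level fell by 1.13 ± 0.16 (limma adjusted p = 9.73e-06). Slc2a4, Pfkm and Ldhb had log2 changes of -0.10, 0.08 and -0.36 and did not pass the test.

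Between days 7 and 14 all 5 muscle-type or heart-type isoforms and Pfkp were higher in the later scars, 6 of 10, where 21.9% of all genes were higher. Pgam2 rose by 1.95 ± 0.26 on the log2 scale, Ldhb by 1.61 ± 0.22, Eno3 by 1.47 ± 0.19, Slc2a4 by 1.22 ± 0.23 and Pfkm by 1.15 ± 0.18 (SE, limma adjusted p at most 0.000295). Pfkp rose by 0.38 ± 0.13 (limma adjusted p = 0.0229), a call lost without A10 of day 7 or A6 or A11 of day 14, with log2 changes of 0.32 to 0.35. The summed cardiomyocyte markers averaged 832 ± 216 RPKM on day 7 and 2651 ± 604 RPKM on day 14 in the same scars (SD, n = 4 each), and their part in these changes was not tested. Between days 14 and 21 limma called 0 of the 10 genes in the scar, of which 0 had an unadjusted p under 0.05, and 0% of all genes. Between days 21 and 42 it called 0 of 10, of which 2 had an unadjusted p under 0.05, where 24.8% of all genes changed in either direction.

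In the uninjured region 6 of the 10 genes changed over the days (Pgam2, Slc2a4, Pfkm, Ldhb, Slc2a1 and Ldha), where 47.2% of all genes did. Between days 3 and 7, Slc2a4, Pfkm, Ldhb and Slc2a1 fell by 0.45, 0.48, 0.50 and 0.34 on the log2 scale (SE 0.11 to 0.14, limma adjusted p at most 0.0357), where 14.5% of all genes were lower. Between days 7 and 14, Pgam2 and Slc2a4 rose by 0.44 and 0.36 (SE 0.12 each, limma adjusted p = 0.0244 and 0.0469), where 7.49% of all genes were higher. Between days 14 and 21 limma called 0 of the 10 genes, of which 0 had an unadjusted p under 0.05, and 0.00878% of all genes. Between days 21 and 42, Eno1, Slc2a1 and Ldha fell by 0.43, 0.38 and 0.35 (SE 0.08 to 0.12, limma adjusted p at most 0.0214), where 10.1% of all genes were lower. Several of these calls rested on the scale or on single mice. With equal totals of recovered reads, the log2 change of Slc2a1 between days 3 and 7 was -0.18 (limma adjusted p = 0.212). On that scale those of Pgam2 and Slc2a4 between days 7 and 14 were 0.30 and 0.22 (limma adjusted p = 0.0606 and 0.112). That of Eno1 between days 21 and 42 was -0.41 (limma adjusted p = 0.0566). After quantile normalization, that of Ldhb between days 3 and 7 was -0.25 (limma adjusted p = 0.0969). The same step left Pgam2 and Slc2a4 at 0.19 and 0.16 between days 7 and 14 (limma adjusted p = 0.173 and 0.192). It left Ldha at -0.15 between days 21 and 42 (limma adjusted p = 0.15). With 1 mouse left out, the call of Ldhb between days 3 and 7 was lost without A8 of day 3 or A7 or A12 of day 7 (log2 changes of -0.45 to -0.43), and that of Slc2a1 without A4, A5 or A8 of day 3 or A7, A10 or A12 of day 7 (-0.36 to -0.24). That of Pgam2 was lost without A7 or A12 of day 7 or A5 or A6 of day 14 (0.37 to 0.41), and that of Slc2a4 between days 7 and 14 without A7, A10 or A12 of day 7 or A5, A6 or A11 of day 14 (0.29 to 0.39). The Slc2a4 call was also lost, at an unmoved 0.36, without A4, A5 or A7 of day 3, A4 or A11 of day 21, or any mouse of day 42 (limma adjusted p = 0.0502 to 0.0565). Between days 21 and 42, that of Eno1 was lost without A10 or A11 of day 21 or B1 or B9 of day 42 (-0.39 to -0.34), and that of Slc2a1 without A11 of day 21 or B1 or B3 of day 42 (-0.37 to -0.33).

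Within each library, the ratio of the 2 isoforms of a pair does not depend on how libraries were scaled to each other. All 5 ratios of muscle-type or heart-type over ubiquitous isoform were lower in the injured region in 20 of 20 mice. The mean log2 difference was -4.48 ± 1.33 for Slc2a4 over Slc2a1, -4.12 ± 1.11 for Eno3 over Eno1, -3.60 ± 1.18 for Pgam2 over Pgam1, -3.20 ± 0.95 for Pfkm over Pfkp and -2.11 ± 0.82 for Ldhb over Ldha (SD, n = 20 mice). Each had p = 1e-05 in a two-sided sign-flip permutation test, the smallest p that the 100000 resamples can give, and the same value after Benjamini-Hochberg adjustment over the 5 pairs.

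**Figure D3:**
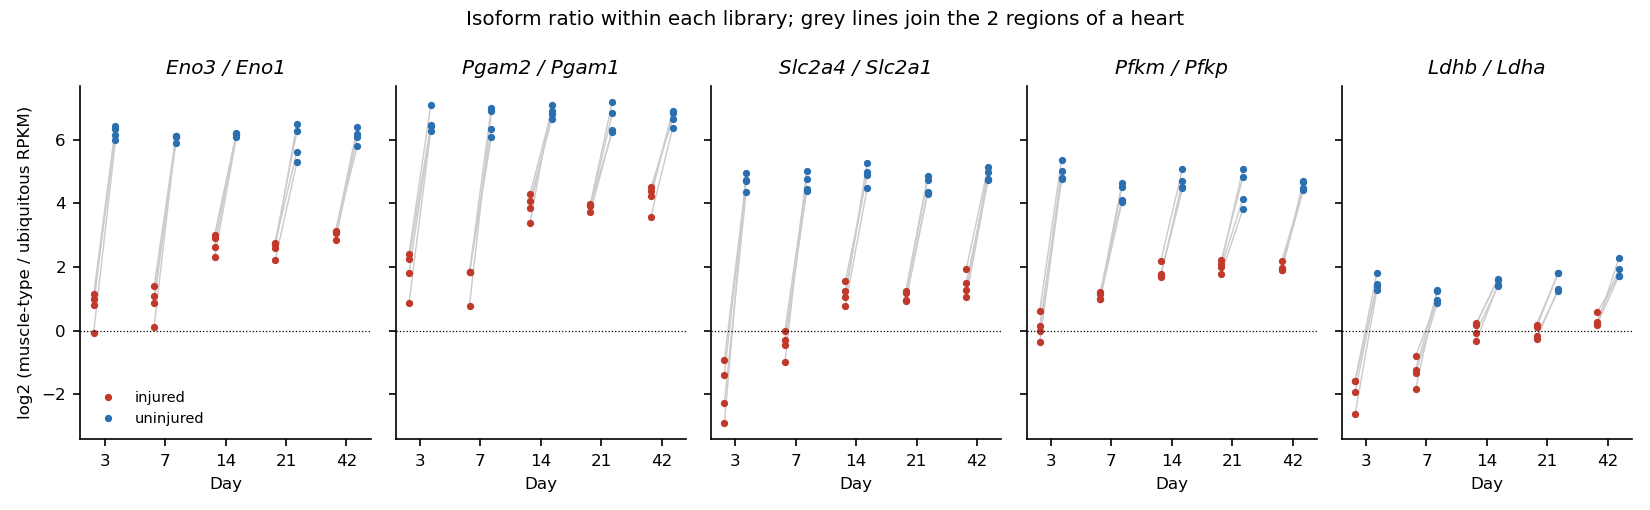
Log2 ratio of the muscle-type or heart-type to the ubiquitous isoform in each library, by pair and day, with injured libraries to the left of uninjured ones and grey lines joining the 2 regions of a heart. The dotted line marks equal RPKM. The day means of uninjured libraries span 0.29 to 0.35 for the pairs of Eno3, Pgam2 and Slc2a4. They span 0.65 for Pfkm over Pfkp, where the uninjured libraries of day 7 lie below those of day 3. Injured libraries lie below uninjured ones on every day and are higher from day 14 on than on days 3 and 7.

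The scars of the first week held more of the ubiquitous than of the other isoform in 2 of the pairs. Slc2a1 made up 77.3 ± 10.3% of the summed RPKM of Slc2a1 and Slc2a4 in injured tissue on day 3, against 3.75 ± 0.637% in uninjured tissue (SD, n = 4 each). It made up 57.5 ± 6.84% on day 7, 31.2 ± 4.71% on day 14, 32.2 ± 2.33% on day 21 and 27.1 ± 5.07% on day 42 in injured tissue, and on no day more than 4.79% in any uninjured library. The log2 ratio of Slc2a4 to Slc2a1 was between -2.91 and -0.92 in the 4 scars of day 3 and between 1.05 and 1.95 in the 4 scars of day 42, so that the order of the carriers was reversed between these days. Ldha made up 78.8 ± 5.28% of the pair in injured tissue on day 3, 70.9 ± 5.99% on day 7, 49.99 ± 4.52% on day 14, 50.6 ± 3.76% on day 21 and 44.7 ± 3.08% on day 42. In uninjured tissue it made up between 17.2% and 35.4% of the pair in every library.

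In the other 3 pairs the mean log2 ratio of the muscle-type isoform to its partner was above equality in the scar on every day. This order is uncertain for Eno1 and Pgam1, which share much of their sequence with other genes. Pfkp made up 48.3 ± 7.07% of its pair in injured tissue on day 3, against 3.1 ± 0.551% in uninjured tissue, and the log2 ratio of Pfkm to Pfkp lay on both sides of equality in the 4 scars, between -0.37 and 0.62. By day 42 the share of Pfkp was 20.2 ± 1.44% in injured and 4.05 ± 0.357% in uninjured tissue. Eno1 made up 38.1 ± 8.92% of its pair in injured tissue on day 3, against 1.33 ± 0.183% in uninjured tissue. The log2 ratio of Eno3 to Eno1 was -0.06 in the scar of day 3 mouse A7. Pgam1 made up 22.6 ± 8.87% in injured tissue on day 3, against 1.05 ± 0.234% in uninjured tissue, and 5.38 ± 1.57% in injured tissue on day 42, against 0.961 ± 0.163% in uninjured tissue.

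All 5 ratios changed over the days in the injured region (permutation of the day labels over 20 libraries, adjusted p between 5e-05 and 0.0001 over 15 such tests). The day means spanned 3.32 on the log2 scale for Slc2a4 over Slc2a1, 2.60 for Pgam2 over Pgam1, 2.33 for Eno3 over Eno1, 2.24 for Ldhb over Ldha and 1.93 for Pfkm over Pfkp. In the uninjured region the day means of the 4 pairs other than Ldhb and Ldha spanned 0.29 to 0.65, and their tests gave adjusted p between 0.182 and 0.746 in the same permutation test. Ldhb over Ldha spanned 0.82 in the uninjured region, with means of 1.09 ± 0.21 on day 7 and 1.91 ± 0.26 on day 42 (SD), and passed the test (permutation adjusted p = 0.00284), but not without day 42 (span 0.46, permutation adjusted p = 0.0617). The gap between scar and remote tissue varied with day in all 5 pairs (permutation adjusted p at most 0.00018). Between single consecutive days, with 4 libraries against 4, an exact permutation test called 0 of 40 comparisons after adjustment, with a smallest adjusted p of 0.127, and 9 had an unadjusted p under 0.05, the smallest possible p being 0.0286.

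The muscle-type and heart-type isoforms were also set over the summed RPKM of the 8 cardiomyocyte markers in the same library. Eno3 was lower relative to these markers in the injured region in 20 of 20 mice, with a mean log2 difference of -0.93 ± 0.43, and Slc2a4 in 19 of 20, with -0.45 ± 0.23 (SD, n = 20 mice, two-sided sign-flip permutation test, adjusted p = 1.67e-05 each over 5 tests). Pfkm was higher relative to the markers in 19 of 20 mice, with 0.27 ± 0.24 (permutation adjusted p = 1.67e-05). For Pgam2 the mean log2 difference was -0.15 ± 0.34 and for Ldhb -0.07 ± 0.17, and neither passed the test (permutation adjusted p = 0.0698 each). The Pgam2 ratio differed in sign between days: it was higher by 0.44 ± 0.05 in the injured region on day 3, in 4 of 4 mice. Its differences of -0.43 ± 0.26, -0.19 ± 0.12, -0.24 ± 0.03 and -0.33 ± 0.18 on days 7, 14, 21 and 42 were lower in 4 of 4 mice each (SD). Without any 1 of the day 3 mice A4, A5, A7 or A8, Pgam2 passed the test, with log2 differences of -0.18 (permutation adjusted p = 0.0274 to 0.0388). Ldhb was lower in 4 of 4 mice on day 21 (-0.11 ± 0.08) and on day 42 (-0.29 ± 0.17). It passed the test without A4 or A7 of day 3 or A10 or A12 of day 7 (-0.085 to -0.081, permutation adjusted p = 0.0374 to 0.0486). Against the mean log2 of the markers, which weights them equally, Pfkm had -0.01 (adjusted p = 0.843), Pgam2 -0.43 (adjusted p = 7.5e-05) and Ldhb -0.35 (adjusted p = 1.67e-05) in the same permutation test, while Eno3 and Slc2a4 stayed lower. The Eno3 ratio thus differed between the regions on both scales. Its day means were -4.73 ± 0.20 in injured and -4.56 ± 0.10 in uninjured tissue on day 3, and -5.95 ± 0.31 in injured and -4.74 ± 0.07 in uninjured tissue on day 42 (log2, SD, n = 4 each).

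**Figure D4:**
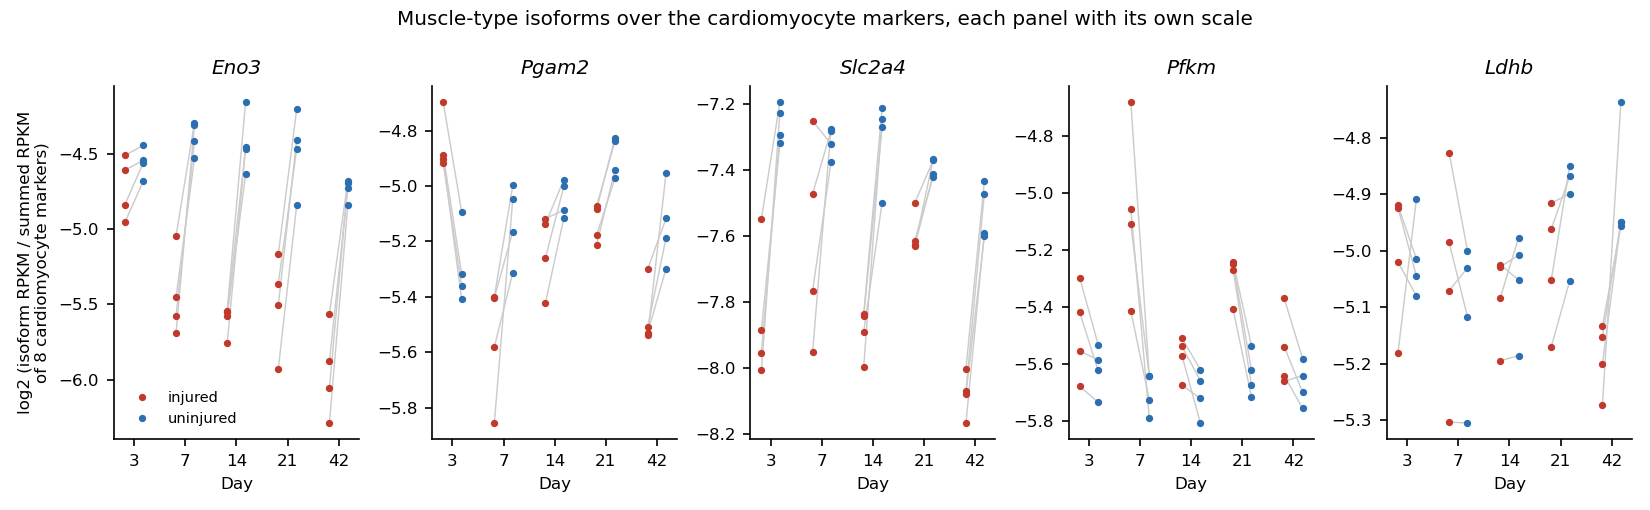
Log2 ratio of each muscle-type or heart-type isoform to the summed RPKM of 8 cardiomyocyte markers, by day, with injured libraries to the left of uninjured ones and grey lines joining the 2 regions of a heart; each panel has its own axis range. Eno3 and Slc2a4 lie lower in injured libraries on most days. Pfkm lies higher within 19 of 20 hearts, though its regions overlap on days 3, 14 and 42. For Ldhb the regions overlap on days 3 to 21.

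Of 38 other genes of glucose metabolism examined, 34 were tested. Of these, 23 were lower in the injured region on all 5 days and 7 were higher on all 5, where 28.8% of all genes were lower and 28.6% higher on all 5. Of the other glycolytic enzymes, 12 of 15 were tested, of which 7 were lower and 2 higher on day 3 and 10 lower and 2 higher on days 7, 14 and 21. The median log2 difference of those 12 was -0.59 on day 3, -1.16 on day 7 and -0.98 on day 42. Among the 14 of 15 genes of sugar, lactate and pyruvate handling that were tested, 9 were lower and 5 higher on every day. All 8 genes of glycogen metabolism were tested, and 7 were lower on every day. On single days, 38.7% to 41% of all genes were lower and 40.5% to 44.1% higher, and the 5 of 14 that were higher make no larger a share than that.

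The lowest of these genes, by the mean over the days, were Pdk4, Pdhb and Pygm. Pdk4, a kinase that blocks pyruvate oxidation, averaged 5.88 ± 0.549 RPKM in injured and 86.4 ± 39.5 RPKM in uninjured tissue on day 7 (SD, n = 4 each; log2 difference -3.55 ± 0.32). Pdhb, a subunit of pyruvate dehydrogenase, averaged 27.9 ± 3.15 RPKM in injured and 349 ± 38.7 RPKM in uninjured tissue on that day, and Pygm, the muscle glycogen phosphorylase, 15.9 ± 2.51 RPKM in injured and 187 ± 22.2 RPKM in uninjured tissue. The highest were Slc16a3, Pfkfb3 and Hk3. Slc16a3, a lactate exporter of glycolytic cells, averaged 14.0 ± 4.45 RPKM in injured and 0.735 ± 0.198 RPKM in uninjured tissue on day 3 (log2 difference 3.08 ± 0.11) and 2.12 ± 0.127 RPKM in injured and 0.33 ± 0.086 RPKM in uninjured tissue on day 42. Pfkfb3, which makes an activator of phosphofructokinase, averaged 6.43 ± 0.963 RPKM in injured and 1.32 ± 0.214 RPKM in uninjured tissue on day 3, and Hk3, a hexokinase found mainly in blood cells, 9.75 ± 2.29 RPKM in injured and 0.69 ± 0.148 RPKM in uninjured tissue.

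The isoforms of the remaining steps also differed in course. Hk2, the main hexokinase of insulin-responsive tissues, was lower in the injured region on all 5 days, with log2 differences between -2.22 and -0.99, while Hk1 was lower on days 7, 14 and 21 only, with differences between -0.78 and -0.45, and had -0.25 on day 3 and 0.02 on day 42 (limma adjusted p = 0.0966 and 0.875). Pkm, the pyruvate kinase gene of muscle and most other tissues, averaged 375 ± 38.8 RPKM in injured and 401 ± 22.2 RPKM in uninjured tissue on day 3 (log2 difference -0.10 ± 0.12, limma adjusted p = 0.425), and 141 ± 25.5 RPKM in injured and 312 ± 32.1 RPKM in uninjured tissue on day 7 (limma adjusted p = 6.77e-09). Aldoa and Gapdh, an aldolase and the dehydrogenase of the next stage, were lower in the injured region on all 5 days, with log2 differences between -2.26 and -1.62 and between -1.69 and -0.58. Pfkl, the liver-type phosphofructokinase, was lower on all 5 days as well, with differences between -1.10 and -0.68. Eno2, the neuronal enolase, and Slc2a3, the neuronal glucose carrier, were higher in the injured region on all 5 days at levels of at most 2.47 and 1.14 RPKM on average.

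Over the 20 injured libraries, log2 levels of the muscle-type and heart-type isoforms rose and fell together. Their 10 pairwise Pearson correlations lay between 0.77 and 0.97, with a median of 0.93, and those of the 5 ubiquitous isoforms between 0.54 and 0.98, with a median of 0.85. The 25 correlations of one kind with the other lay between -0.75 and 0.47. Over the 20 uninjured libraries the medians were 0.70, 0.41 and 0.15. All these points share libraries, days and scaling, and the correlations describe them only.

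Of 11126 genes compared over the injured libraries, those most like Pgam2 were Tmem38a and Ckmt2 (Pearson r of 0.989 each). Those most like Pfkm were Mb and Mylk3 (0.984 and 0.982), and those most like Slc2a4 were Mybpc3 and Mdh1 (0.983 and 0.982). Those most like Ldhb were Casq2 and Perm1 (0.982 and 0.981), and those most like Eno3 were Trim72 and Cox6a2 (0.957 and 0.95). Mb encodes myoglobin, Mybpc3 a sarcomere protein and Casq2 the cardiac calsequestrin. Those most like Eno1 were Jak3 and Ap2m1 (0.98 and 0.978), and those most like Pgam1 were Eno1 and Slc16a3 (0.976 and 0.972). Those most like Slc2a1 were Pgs1 and Pvr (0.976 and 0.974), those most like Pfkp were Vegfa and Afg3l2 (0.947 and 0.946), and those most like Ldha were Pgk1 and Slc25a5 (0.986 and 0.956). Pgk1 encodes the glycolytic phosphoglycerate kinase and Vegfa an angiogenic growth factor. Over the 20 uninjured libraries the same pairs of genes had r between 0.05 and 0.84.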

How the data were processed

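Injured and uninjured heart tissue of 20 mice was sequenced by the authors. Per the labels' protocols, the RNA was total RNA from an RNeasy Mini kit, with library preparation by a TruSeq kit. The authors deposited RPKM values for 11450 genes. Per the submitters' processing notes, STAR and edgeR were among the tools and mm10 was the build, with no version. The sources used here give no annotation, read length, strand or settings.

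The 11390 genes reaching 1 RPKM in no fewer than 4 libraries entered limma 3.58.1 (under R 4.3.3, with statmod 1.5.0, trend and robust moderation) on log2(RPKM + 1), which understates changes of low genes. The mouse was a block in region comparisons. A call is a Benjamini-Hochberg adjusted p under 0.05 over the whole set of genes. The mouse pairs libraries because scar and remote tissue share a heart, and deviations of its 2 libraries correlated at 0.15 to 0.54. Ratios used no pseudocount and permutation tests (numpy 2.4.6). Residual degrees of freedom were 15. There was 1 library for each region of a mouse. In region comparisons, p-values thus measure how the difference between the regions varies between mice. In comparisons of days within a region, they measure the spread between mice. Whole reads, within 0.01 of a whole number, were recovered for 11448 genes; these give the totals, and no interval was computed from them. The fits and permutation tests were tested on simulated data.

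The 10 genes, marker lists and pathway lists were chosen with earlier results of these data known. Named beside them were the 3 highest and 3 lowest pathway genes called on all 5 days, 10 pathway genes listed by symbol, and for each member the 2 genes with the highest correlation. Alternatives were the pseudocount, the filter, the scaling, the moderation, the block, leaving out each mouse, omitting day 42 and another summary of the markers. Amino acid sequences and a Slc2a4 promoter were not used here.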

Additional observations from a re-analysis of the deposited data

Results flagged for a closer look

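By a limma F test, the gap between scar and remote tissue varied over the 5 days for 74.3% of all genes tested. It varied for all 10 genes described here (limma F test, adjusted p): Eno3 6.56e-05, Pgam2 7.61e-05, Slc2a4 3.39e-06, Pfkm 1.94e-06, Ldhb 3.87e-05, Eno1 1.29e-08, Pgam1 3.01e-06, Slc2a1 8.27e-06, Pfkp 8.5e-06 and Ldha 0.000544. So did the difference in log2 isoform ratio, with a permutation adjusted p of 7.5e-05 for Eno3 over Eno1, Pgam2 over Pgam1 and Pfkm over Pfkp, 5e-05 for Slc2a4 over Slc2a1 and 0.00018 for Ldhb over Ldha.

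In 8 of 150 groups of 4 libraries, 1 library lay far from the other 3, where chance alone marks about 1 in 20 groups. These libraries were Pfkp at 19.8 RPKM in injured tissue of day 3 mouse A8 and Ldha at 136 RPKM in injured tissue of day 3 mouse A7. In uninjured tissue they were Pgam1 at 3.39 RPKM in day 14 mouse A4 and Slc2a1 at 2.78 RPKM in day 7 mouse A10. Among log2 ratios they were Pgam2 over Pgam1 at 0.79 in injured tissue of day 7 mouse A10 and Pfkm over Pfkp at 2.18 in injured tissue of day 14 mouse A6. In uninjured tissue they were Eno3 over Eno1 at 5.91 in day 7 mouse A12 and at 6.09 in day 14 mouse A4. The deviations of log2 ratios are small beside the gap between the regions in the same ratio. For single genes this need not hold. The other uninjured libraries of day 14 had 4.68 to 4.94 RPKM of Pgam1, whose log2 difference between the regions was 0.05 on that day.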

How the results depend on the processing

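All 5 muscle-type or heart-type isoforms were lower in the injured region on every day, and all 5 isoform ratios were lower there, under every alternative run, with and without the replicate block. Counts of ubiquitous isoforms moved. With equal totals of recovered reads, 0 were lower on day 3 and 1 each on days 14, 21 and 42, and 3 were higher on days 7 and 14 and 2 on day 21; Eno1 on day 14, Pgam1 on day 21 and Pfkp on day 21 turned to log2 differences of 0.054, 0.13 and 0.42 (limma adjusted p = 0.642, 0.286 and 0.000531). After quantile normalization, 0 were lower on day 3, 1, 0 and 1 were higher on days 14, 21 and 42, Ldha turned to 0.36 on day 3, and 3 genes changed over the days in the uninjured region. Without the replicate block, and with the mouse as a random replicate block, 1 was higher on days 14 and 42. With 1 mouse left out, 0 to 2 were higher on day 14, 0 to 1 on day 21 and 0 to 2 on day 42, and 3 to 8 genes changed in the uninjured region, with 3 reached without day 7 mouse A7. Over the mean log2 of the markers, Pgam2 moved to -0.43, Pfkm to -0.012 and Ldhb to -0.35. With 1 mouse left out, Pgam2 over the summed markers ranged from -0.18 to -0.11 and Ldhb from -0.085 to -0.047, and each passed the test in 4 of these 20 cases. Without day 42, the uninjured day means of Ldhb over Ldha spanned 0.46. The cause was not tested for any of these. Depth limits Pgam1 and Slc2a1 most, whose uninjured levels are a few RPKM.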
